A study of Mus musculus with 6 samples.

Results

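The genes described here encode noncollagenous proteins of the extracellular matrix, namely the glycoproteins, proteoglycans and laminins that surround the cells of a tissue. They are a list of 42 genes chosen by function, and 41 of them had a probe under their gene name or an older symbol of it and were tested among 21067 genes. Hspg2, which encodes the basement membrane proteoglycan perlecan, had no probe by that rule. The list holds 12 genes of elastic fibres and microfibrils, 14 secreted glycoproteins, 9 proteoglycans and 7 basement membrane genes.

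Expression was measured in abdominal white adipose tissue (WAT) of female C57/BL6 mice at 30 wk of age, either hNAG-1 transgenic or wild-type (WT). hNAG-1 mice carry human NAG-1 (also known as GDF15), a secreted member of the TGF-beta superfamily, and the study's methods describe the transgene as expressed in most tissues and highly in white and brown fat. Each of 3 arrays per genotype held RNA pooled from the fat of 2 mice, 6 mice per genotype, of 1 transgenic line, and the diet of these mice is not given in the sources used here. No mouse is shared between pools, so the spread between arrays holds that between pools together with technical variation.

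The matrix of fat tissue is made largely by fibroblast-like stromal cells and adipocyte progenitors, with contributions from vessel wall cells and from the adipocytes themselves. Elastic fibres have a core of elastin laid down on fibrillin microfibrils with the help of fibulins and microfibril-associated proteins. Small leucine-rich proteoglycans bind collagen fibrils and set their spacing, matricellular glycoproteins such as thrombospondins and SPARC tune how cells engage the matrix, and laminins with nidogens form the basement membrane that wraps each adipocyte and vessel. In bulk tissue, fewer cells of a type and less RNA per cell cannot be told apart.

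The measurement at Thbs1 and Prelp, the genes with the largest differences among the glycoproteins and the proteoglycans, rests on oligonucleotide probes of 60 bases, and the first 30 bases of each are shown because several probes at different places in each gene gave similar values. Positions come from the design of the array, in mouse build mm7, and the exon each lies in was not analysed here. For Thbs1 the brightest probe lies at chr2:117866887-117866946, the next at chr2:117863442-117863501, and the last spans chr2:117861824-117862004.
Thbs1 brightest probe: atatatttattttgttcccctattctggag
Thbs1 second probe: gtgaccatgacgatgacaatgacggcatcc
Thbs1 last probe: tgtggacatcgatggagatggaatcctcaa
Their log2 fold changes were -2.07, -2.06 and -2.17. For Prelp the brightest probe lies at chr1:133800142-133800201 and the other at chr1:133804829-133804888.
Prelp brightest probe: ctgtacatcttatctattctccaaaagacc
Prelp second probe: ttacctttacttgcagaacaacttcatcac
Their log2 fold changes were -1.29 and -1.40.

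Promoter windows from RefSeq on GRCm38.p6 matched 27 of the 42 genes, in 35 windows, and Thbs1 was not among them. In the 250 bases before the start, the GC box letters GGGCGG, read on both strands, were present in 57.1% of the windows of these genes and in 32.7% of all 32851 windows. TATAAA was present in 17.1% against 12.4%, the AP-1 letters TGANTCA in 5.71% against 6.75%, the TEAD letters GGAATG in 8.57% against 12.6% and the E-box letters CACGTG in 5.71% against 6.02%. The windows of Bgn and Thbs2 are shown, because both genes were lower on every hNAG-1 array than on any WT array. Their windows also differ in these letters, which are in capitals.
Bgn, chrX:73483351-73483600, plus strand: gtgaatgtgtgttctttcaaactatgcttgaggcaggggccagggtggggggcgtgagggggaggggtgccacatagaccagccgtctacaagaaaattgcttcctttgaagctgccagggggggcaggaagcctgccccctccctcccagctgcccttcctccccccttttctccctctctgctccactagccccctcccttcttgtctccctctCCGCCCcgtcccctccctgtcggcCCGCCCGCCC
Thbs2, chr17:14694263-14694512, minus strand: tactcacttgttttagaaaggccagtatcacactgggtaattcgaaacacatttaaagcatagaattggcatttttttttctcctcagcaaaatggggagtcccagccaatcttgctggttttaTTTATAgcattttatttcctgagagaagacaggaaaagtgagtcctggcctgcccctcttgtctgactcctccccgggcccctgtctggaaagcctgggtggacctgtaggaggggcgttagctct
The Bgn window holds the GC box on the opposite strand at bases 217, 241 and 245, the last pair overlapping, and no TATAAA. The Thbs2 window holds no GC box and TATAAA on the opposite strand at base 125. These are matches of letters only.

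Values are log2 signals relative to the 75th percentile of the array, so that 0 is that percentile and a difference of 1 is a 2-fold difference. They are compared between arrays for a gene and not between genes, since probes differ in brightness. From 71.2% to 82.0% of an array's spots exceeded background by the scanner's criterion. A single slide carried all WT arrays together with hNAG-1 replicate 1, and a further slide carried the other hNAG-1 pools, so hNAG-1 replicate 1 against WT gives a difference within a slide.

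Among the pools, WT replicate 3 stood apart from the other WT arrays in smooth muscle transcripts. The median of 9 smooth muscle markers, relative to the WT mean, was 0.68, 1.03 and -1.75 in the WT pools and -1.31, -1.50 and -1.11 in the hNAG-1 pools, so that WT replicates 1 and 2 were high and the other 4 arrays low. The summed marker signal was 66.5 to 409 times the 75th percentile in the WT pools and 63.48 to 94.96 times in the hNAG-1 pools, and no marker was at 0, all 9 being well above background on all 6 arrays. Exocrine pancreas markers were high on WT replicate 2 alone, with a median of 3.85 relative to the WT mean. All 10 adipocyte markers were well above background on every array, as the tissue label states.

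Most matrix genes of the list were lower in hNAG-1 WAT than in WT WAT, without any of them passing the adjusted threshold, and with normexp background correction their median lay 0.024 above that of all genes. The largest differences were at the thrombospondin genes Thbs1 and Thbs2 and at the proteoglycan gene Prelp, with signals 4.21-, 3.23- and 2.44-fold lower. In limma, with Benjamini-Hochberg adjustment over all genes, 0 of 21067 genes (0%) and 0 of the 41 matrix genes had an adjusted p under 0.05, the smallest being 0.169 over all genes and 0.209, for Prelp, among the matrix genes. The log2 fold change, hNAG-1 minus WT, was below 0 in 38 of the 41, against 41.1% of all genes. At an unadjusted p under 0.05, 10 of the 41 (24.4%) were lower, against 4.11% of all genes, and 0 were higher, against 8.44% of all genes. In 13 of the 41 the hNAG-1 arrays all lay below the WT arrays, against 6.61% of all genes, and in 0 all above, against 13.6%.

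The median log2 fold change of the 41 genes was -0.35, which is 1.27-fold lower in hNAG-1 mice, and that of all genes was 0.06. On single arrays the median of the 41 genes relative to the WT mean was 0.19, -0.04 and -0.14 for WT and -0.35, -0.49 and -0.27 for hNAG-1, so the genotypes did not overlap. The same medians over all genes lay between -0.03 and 0.12. WT replicate 1 was the highest WT array for 22 of the 41 genes and WT replicate 3 the lowest for 25, while hNAG-1 replicate 2 was the lowest hNAG-1 array for 24. Within the shared slide the median was -0.35 against -0.03 for all genes, with 36 of 41 below 0 against 53.4% of all genes.

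The size of this difference depended on the background correction and on which WT pools were used. With normexp background correction in place of the scanner's, the median of the 41 was -0.17 and that of all genes -0.19, a shift of all genes by -0.26, and 20 of the 41 lay below the median of all genes, against 40 with the scanner's correction. The count of lower genes at an unadjusted p under 0.05 in limma was then 6 of 41, against 0.555% of all genes. The 10 genes at that threshold under the scanner's correction, a choice made on the same arrays, had log2 fold changes of -1.82 to -0.38 with normexp, each below the median of all genes. The count was also 6 without WT replicate 1, against 2.52% of all genes, and 17 without WT replicate 3, against 5.93% of all genes. A comparison with WT replicate 3 as the only WT array was added because WT replicates 1 and 2 were high in smooth muscle markers. There the median of the 41 was -0.13, against 0.08 for all genes, with 31 of 41 below 0, against 40.1% of all genes. Of the 41, 35 lay below the median of all genes. In the limma fit of that comparison the lone WT array was assumed to vary like the hNAG-1 arrays.

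**Figure D1:**
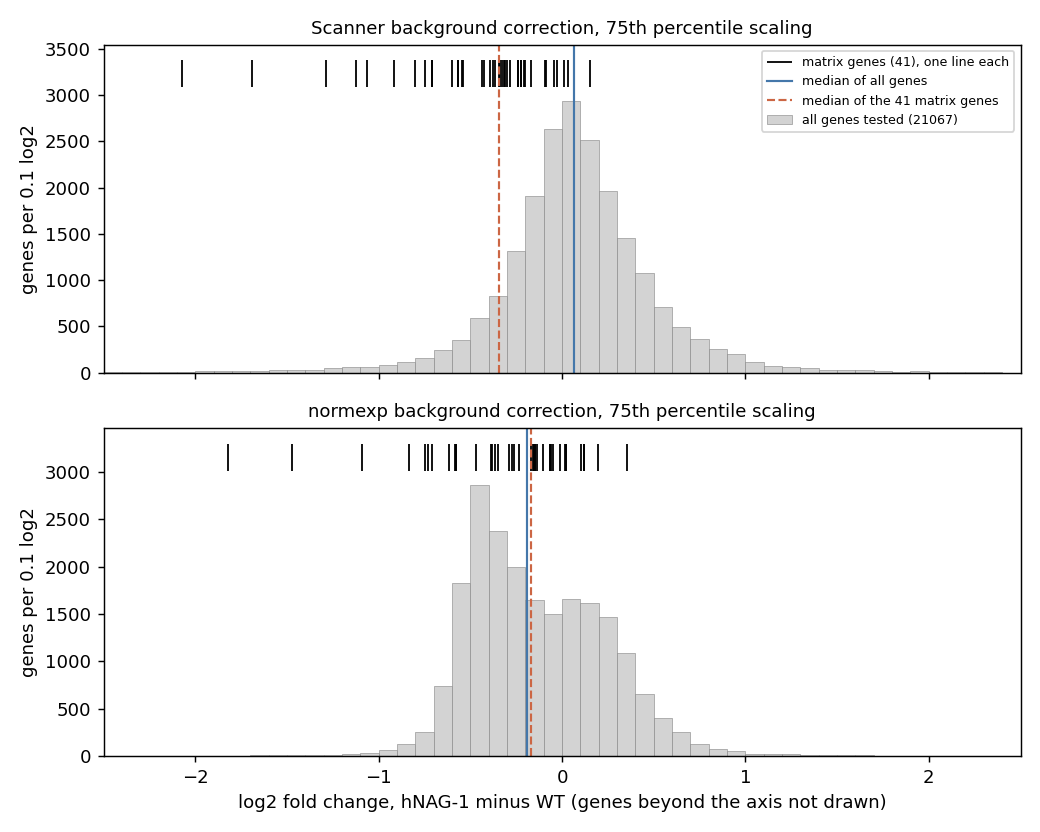
Histograms of the log2 fold change, hNAG-1 minus WT, over 21067 genes (grey bars, genes per 0.1 log2) with 1 black line for each of 41 matrix genes, under the scanner's background correction (top) and normexp (bottom). The solid blue line is the median of all genes (0.06 and -0.19) and the dashed line that of the matrix genes (-0.35 and -0.17). They are apart in the top panel and close together in the bottom one.

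**Figure D2:**
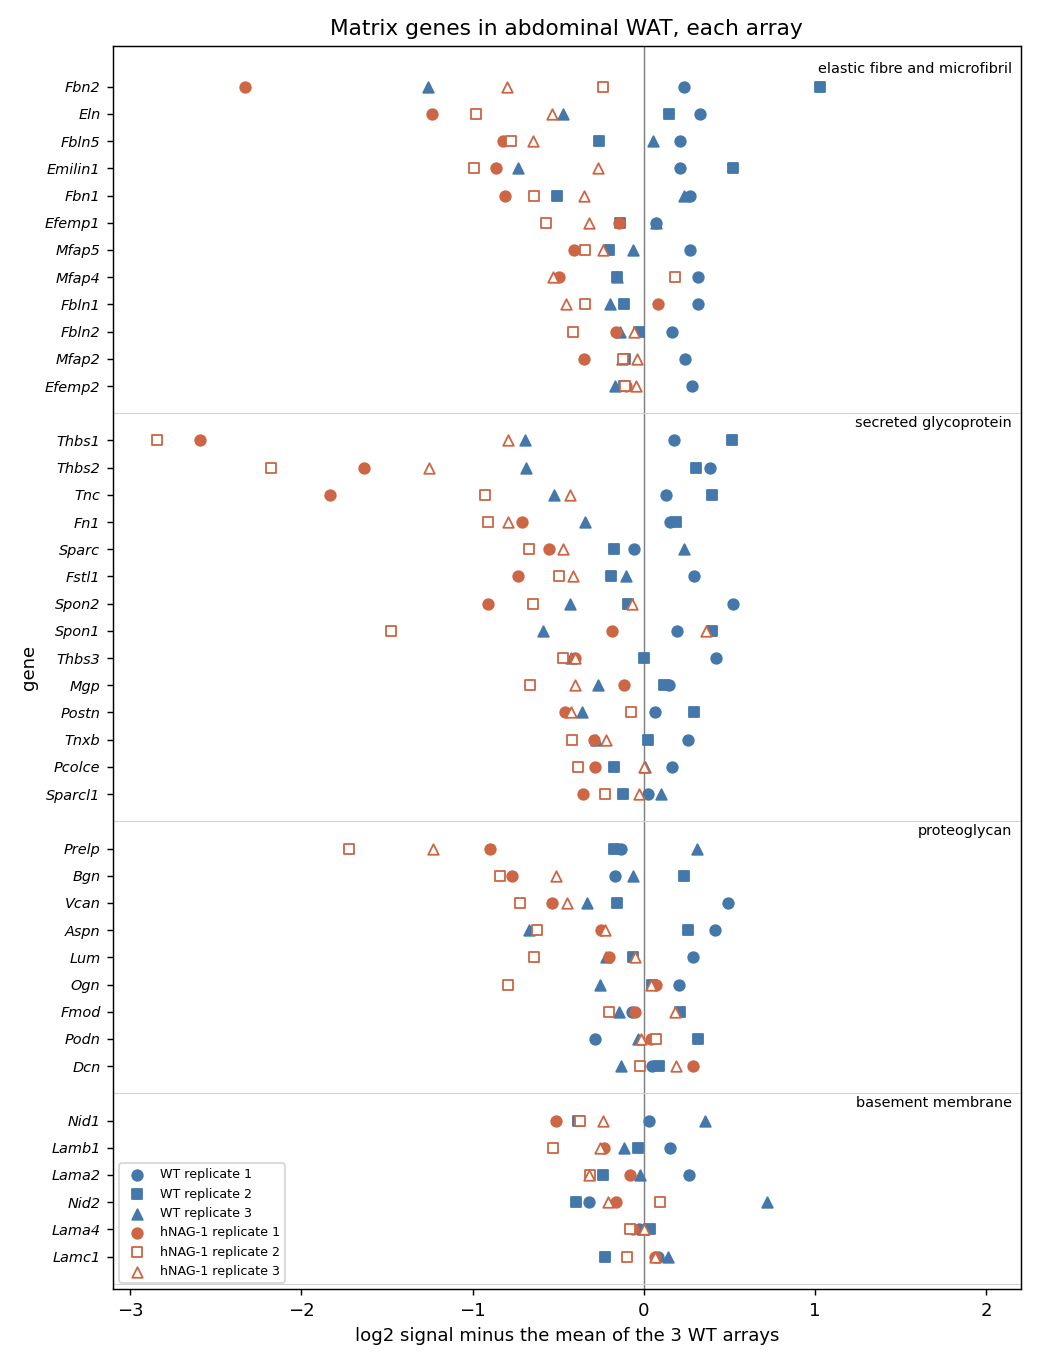
Log2 signal minus the mean of the 3 WT arrays (horizontal axis) for each of the 41 tested matrix genes (vertical axis), 1 point per array, in 4 groups by role. Blue symbols are WT, red symbols hNAG-1, and open red symbols the hNAG-1 arrays on the slide without WT; 13 genes have all hNAG-1 points left of all WT points.

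The secreted glycoproteins held the differences of the thrombospondins, and all 14 had a log2 fold change below 0, with a median of -0.49, which is 1.40-fold lower, though with normexp 9 of the 14 lay below the median of all genes. At an unadjusted p under 0.05 in limma, 6 of the 14 were lower, against 4.11% of all genes, namely Thbs1, Thbs2, Tnc, Fn1, Sparc and Fstl1. In 5 of these, all but Tnc, the hNAG-1 arrays all lay below the WT arrays, against 6.61% of all genes.

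Thbs1 encodes thrombospondin-1, a matricellular protein that activates latent TGF-beta and inhibits angiogenesis. Its log2 signal was 3.18, 3.51 and 2.31 in the WT pools and 0.41, 0.16 and 2.21 in the hNAG-1 pools. hNAG-1 replicates 1 and 2 were far below every WT array, and hNAG-1 replicate 3 lay just under WT replicate 3. This was a log2 fold change of -2.07 ± 0.62 (SE, n = 3 per genotype), a 4.21-fold lower signal, with an adjusted p of 0.302 in limma.

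Thbs2, with its probe at chr17:12950083-12951346 (mm7), encodes thrombospondin-2, a close relative that acts in collagen fibril assembly. It read 2.75, 2.66 and 1.67 in the WT pools and 0.73, 0.18 and 1.11 in the hNAG-1 pools. WT replicate 3 was again the lowest WT array, yet still above all 3 hNAG-1 arrays. That gave a log2 fold change of -1.69 ± 0.38 (SE), 3.23-fold lower, with an adjusted p of 0.230 in limma. Thbs3, another thrombospondin of the list, had a log2 fold change of -0.43 ± 0.23, and its hNAG-1 arrays, at 2.28 to 2.35, overlapped WT replicate 3 at 2.33.

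Tnc, with its probe at chr4:63394034-63394094, encodes tenascin-C, a glycoprotein of wound and remodelling matrix. Its log2 signal was -1.64, -1.38 and -2.30 in the WT pools and -3.61, -2.70 and -2.20 in the hNAG-1 pools, with hNAG-1 replicate 3 above WT replicate 3. The log2 fold change was -1.06 ± 0.42 (SE) and the adjusted p 0.392 in limma. A dimmer probe of the gene gave -0.24.

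Fn1, with its probe at chr1:71832689-71834926, encodes fibronectin, on which many other matrix proteins assemble. It read 3.24, 3.27 and 2.74 in the WT pools and 2.37, 2.18 and 2.29 in the hNAG-1 pools, a tight hNAG-1 group below all WT arrays. It had a log2 fold change of -0.80 ± 0.18 (SE), 1.75-fold lower, with an adjusted p of 0.230 in limma, and its dimmer probes gave -0.82 and -0.42.

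Sparc, with its probe at chr11:55352704-55355361, encodes osteonectin, a collagen-binding matricellular protein. Its log2 signal was 6.75, 6.63 and 7.05 in the WT pools and 6.26, 6.14 and 6.34 in the hNAG-1 pools. Here WT replicate 3 was the highest array, unlike at the thrombospondins. The difference, as a log2 fold change, was -0.57 ± 0.15 (SE), 1.48-fold lower, with an adjusted p of 0.262 in limma, and a dimmer probe gave -0.33 ± 0.25. Its relative Sparcl1 had the smallest difference of the glycoproteins, with 5.87, 5.72 and 5.94 in the WT pools and 5.49, 5.62 and 5.82 in the hNAG-1 pools. Those arrays overlapped, with a log2 fold change of -0.20 ± 0.13 (SE) and an adjusted p of 0.566 in limma.

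Fstl1 encodes a secreted follistatin-like protein and has its probe at chr16:37543886-37543945. It read 4.74, 4.25 and 4.34 in the WT pools and 3.71, 3.95 and 4.03 in the hNAG-1 pools. All hNAG-1 arrays were below all WT arrays. The log2 fold change was -0.55 ± 0.18 (SE), 1.46-fold lower, with an adjusted p of 0.323 in limma.

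The remaining glycoproteins overlapped between genotypes. The F-spondin gene Spon1 had a log2 fold change of -0.43 ± 0.53 and Spon2 of -0.54 ± 0.32, where Spon1 in the hNAG-1 pools ranged from 0.81 to 2.64. Mgp, whose product inhibits calcification, had -0.39 ± 0.20, and Postn, which encodes periostin, -0.32 ± 0.21, although its dimmer probe gave 0.23 and the mean of both -0.042. Tnxb, the tenascin gene needed for normal collagen architecture, had -0.31 ± 0.17, and Pcolce, an enhancer of procollagen processing, -0.22 ± 0.16.

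In the elastic fibre and microfibril genes all 12 had a log2 fold change below 0, with a median of -0.34. With normexp 10 of the 12 were below 0, against 64.3% of all genes, and 6 of the 12 below the median of all genes. At an unadjusted p under 0.05 in limma 2 of the 12, Fbln5 and Eln, were lower, against 4.11% of all genes. In 4 of the 12 the hNAG-1 arrays all lay below the WT arrays, against 6.61% of all genes, these being Fbln5, Eln, Efemp1 and Mfap5.

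Eln, with its probe at chr5:133674539-133674598, encodes elastin, the core of the elastic fibre. Its log2 signal was 0.89, 0.71 and 0.09 in the WT pools and -0.68, -0.42 and 0.02 in the hNAG-1 pools. WT replicate 3 and hNAG-1 replicate 3 lay close together at the border between the genotypes. That gave a log2 fold change of -0.92 ± 0.28 (SE), 1.89-fold lower, with an adjusted p of 0.307 in limma.

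Fbln5, with its probe at chr12:99245331-99245390, encodes fibulin-5, which carries elastin onto microfibrils. It read 3.09, 2.62 and 2.94 in the WT pools and 2.06, 2.11 and 2.23 in the hNAG-1 pools, with a clear gap between the genotypes. hNAG-1 minus WT, the log2 fold change was -0.75 ± 0.16 (SE), 1.68-fold lower, with an adjusted p of 0.218 in limma. Of its dimmer probes, 1 gave -1.51 and was well above background on 5 arrays, and the other gave -0.23 and was well above background on 3.

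The fibrillins form the microfibril itself. Fbn2 had the largest log2 fold change of the elastic fibre genes, -1.12 ± 0.77 (SE), with signals of -2.36, -1.56 and -3.85 in the WT pools and -4.92, -2.83 and -3.39 in the hNAG-1 pools. The genotypes overlapped widely, and the adjusted p was 0.580 in limma. With each array left out the log2 fold change of Fbn2 ran from -1.75 to -0.52, and without hNAG-1 replicate 1 it was smaller than that of Eln at -0.76. Without WT replicate 2 it was -0.61 against -0.88 for Fbln5, and with normexp -0.71 against -0.75 for Eln. With WT replicate 3 as the only WT array it was 0.14. Fbn1, the main fibrillin of adult tissue, had -0.60 ± 0.26 with hNAG-1 arrays from 1.57 to 2.03, overlapping WT replicate 2 at 1.87. A dimmer Fbn1 probe gave -0.82.

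Efemp1, which encodes fibulin-3, had -0.35 ± 0.15 and Mfap5, a microfibril-associated glycoprotein gene, -0.33 ± 0.16. In both, every hNAG-1 array lay below every WT array by a narrow margin, Efemp1 at 4.743 to 5.168 against WT at 5.175 to 5.385. Emilin1, an elastin interface protein, had -0.71 ± 0.38 with WT replicate 3 at -0.61 inside the hNAG-1 range of -0.86 to -0.14.

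The other microfibril and fibulin genes overlapped. Mfap4 had a log2 fold change of -0.28 ± 0.25, Fbln1 -0.24 ± 0.21, Fbln2 -0.21 ± 0.15 and Mfap2 -0.17 ± 0.16. Efemp2, which encodes fibulin-4, had the smallest difference of these genes, with 3.39, 2.99 and 2.94 in the WT pools and 3.00, 3.00 and 3.06 in the hNAG-1 pools. WT replicate 1 was above the other 5 arrays, which lay together, and the log2 fold change was -0.09 ± 0.15 (SE) with an adjusted p of 0.836 in limma.

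**Figure D3:**
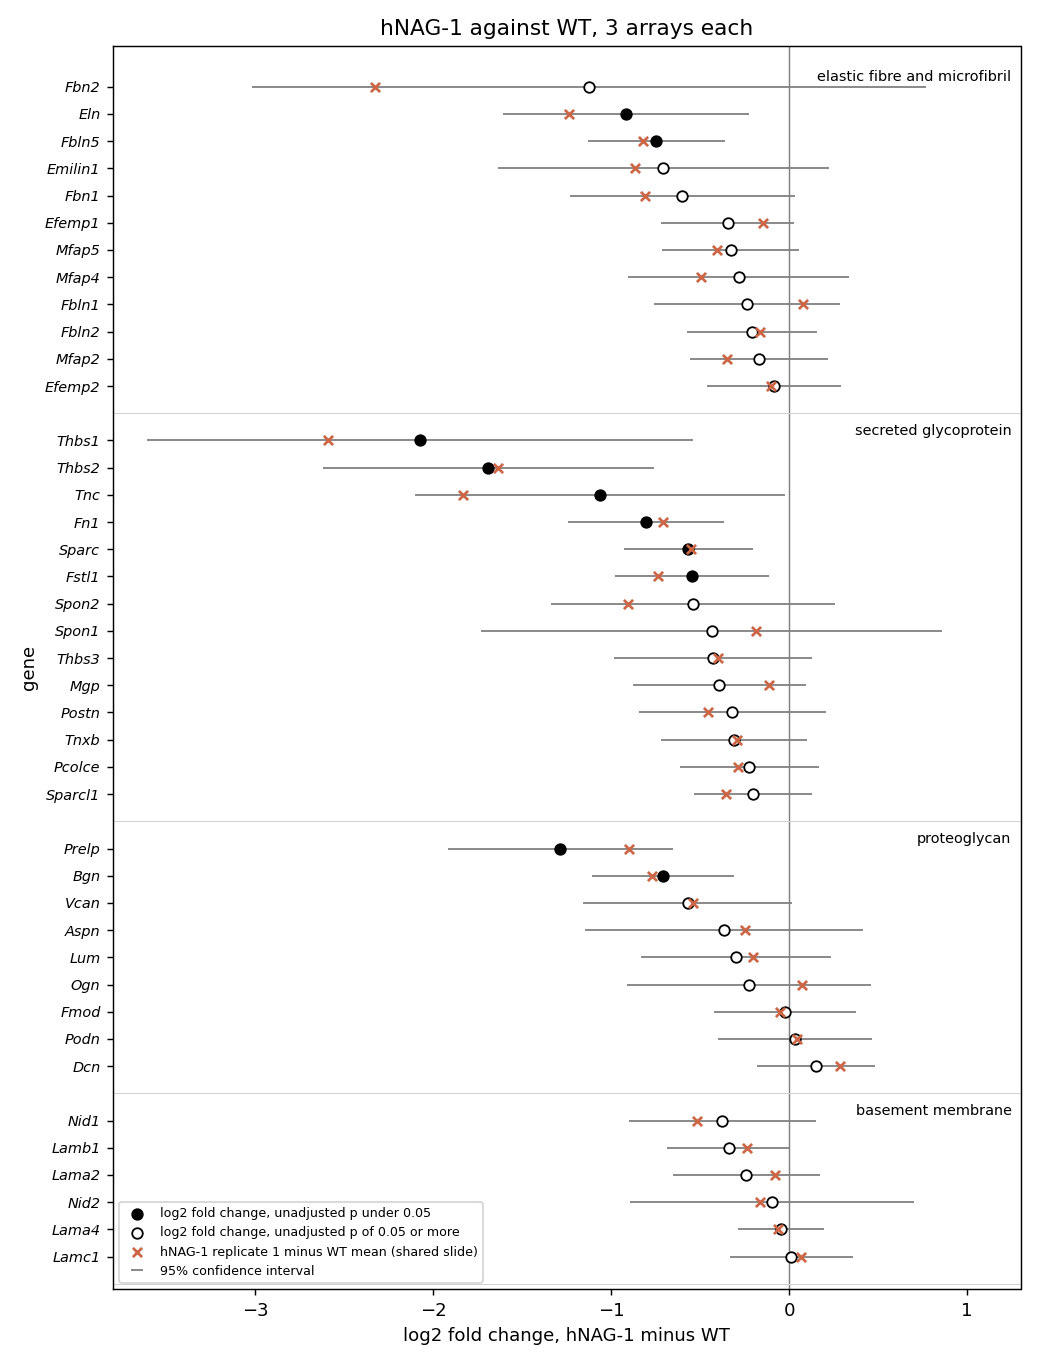
Log2 fold change, hNAG-1 minus WT (horizontal axis), of the 41 matrix genes (vertical axis) with 95% confidence intervals from limma, filled where the unadjusted p is under 0.05. Crosses give hNAG-1 replicate 1 minus the WT mean, within the shared slide; 38 of the circles and 36 of the crosses lie below 0.

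The proteoglycans were mixed, with 7 of 9 below 0 and a median of -0.30. With normexp 6 of the 9 were below 0, against 64.3% of all genes, and 4 of the 9 below the median of all genes. Prelp and Bgn, 2 of the 9, were lower at an unadjusted p under 0.05 in limma, against 4.11% of all genes. In these and Vcan, 3 of the 9, the hNAG-1 arrays all lay below the WT arrays, against 6.61% of all genes.

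Prelp, a small leucine-rich proteoglycan that anchors basement membranes to connective tissue, had the smallest p of all 41 genes (unadjusted 0.00262, adjusted 0.209, limma). Its log2 signal was 6.01, 5.97 and 6.45 in the WT pools and 5.24, 4.42 and 4.91 in the hNAG-1 pools. The lowest WT array was well above the highest hNAG-1 array, and WT replicate 3 was the highest of all. The log2 fold change was -1.29 ± 0.26 (SE), 2.44-fold lower, and Prelp was at an unadjusted p under 0.05 in all 20 settings tried, these including the reported one.

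Bgn, with its probe at chrX:68879864-68879923 (mm7, a build other than that of its promoter window above), encodes biglycan, which binds collagen and TGF-beta. It read -0.33, 0.07 and -0.23 in the WT pools and -0.93, -1.003 and -0.67 in the hNAG-1 pools, with no overlap. The difference, as a log2 fold change, was -0.71 ± 0.16 (SE), 1.63-fold lower, with an adjusted p of 0.230 in limma. A dimmer probe gave -0.33. Vcan, the large hyaluronan-binding proteoglycan versican, had -0.57 ± 0.24, with WT at -2.32 to -1.50 and hNAG-1 at -2.71 to -2.44.

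Decorin and podocan had values above 0, which turned for Dcn to -0.012 with quantile normalization and for Podn to -0.15 with normexp. The median of all genes was -0.19 with normexp, so Podn stayed above it. Dcn, a collagen-binding small leucine-rich proteoglycan, had a log2 fold change of 0.15 ± 0.13 with a 95% confidence interval from -0.18 to 0.48. Its signals were 7.88, 7.92 and 7.70 in the WT pools and 8.12, 7.81 and 8.02 in the hNAG-1 pools, and a dimmer probe gave -0.08. Podn, which encodes podocan, had 0.03 ± 0.17, and all 3 of its hNAG-1 arrays lay within the WT range of -1.90 to -1.30.

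Fmod, which encodes fibromodulin, had the smallest difference of the proteoglycans. It read 0.29, 0.57 and 0.21 in the WT pools and 0.30, 0.15 and 0.54 in the hNAG-1 pools, with a log2 fold change of -0.03 ± 0.16 (SE) and an adjusted p of 0.959 in limma. The genotypes lay on top of each other. The remaining collagen-binding members of the family also overlapped, Lum (lumican) with -0.30 ± 0.22, Ogn (osteoglycin) with -0.23 ± 0.28 and Aspn (asporin) with -0.37 ± 0.32.

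Over all arrays, basement membrane genes had the median closest to 0 among the roles. This order did not hold with WT replicate 3 as the only WT array. Of 6 tested, 5 had a log2 fold change below 0, and the median was -0.17. With normexp 3 of the 6 were below 0, against 64.3% of all genes, and 1 of the 6 lay below the median of all genes. At an unadjusted p under 0.05 in limma 0 were lower, against 4.11% of all genes, and 0 higher, against 8.44%. In 1 of the 6, Lamb1, the hNAG-1 arrays all lay below the WT arrays, against 6.61% of all genes.

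Nid1 encodes nidogen-1, which links laminin to collagen IV, and had the largest difference of the group over all arrays, though not in every setting. It was -0.20 against -0.40 for Lamb1 without WT replicate 3, and -0.15 against -0.24 for Lama2 with normexp. Without hNAG-1 replicate 1 it was -0.305 against -0.320 for Lama2. With WT replicate 3 as the only WT array it was -0.73 against -0.81 for Nid2. The log2 signal of Nid1 was 5.63, 5.22 and 5.96 in the WT pools and 5.09, 5.23 and 5.37 in the hNAG-1 pools. WT replicate 2 lay within the hNAG-1 range. This was a log2 fold change of -0.38 ± 0.21 (SE) with an adjusted p of 0.518 in limma.

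Lamb1, the laminin beta 1 chain, had -0.34 ± 0.14, with WT at 3.14 to 3.41 and hNAG-1 at 2.73 to 3.02. Lama2, the alpha chain of muscle and peripheral nerve laminin, had -0.24 ± 0.17, Nid2, encoding nidogen-2, -0.09 ± 0.32, and Lama4, the alpha chain of vessel and adipocyte laminin, -0.05 ± 0.10. The dimmer probes of Lama2 gave -0.48 and 0.35, and those of Lama4 gave -0.10, -0.12 and 0.44, so that in each gene the dimmest alone was above 0.

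Lamc1, the gamma chain that most laminins share, had the smallest difference of all 41 genes and was above 0, though -0.12 with quantile normalization. It read 4.44, 4.13 and 4.49 in the WT pools and 4.42, 4.26 and 4.42 in the hNAG-1 pools. Every hNAG-1 array lay within the WT range, with a log2 fold change of 0.01 ± 0.14 (SE), a 95% confidence interval from -0.34 to 0.36 and an adjusted p of 0.977 in limma. A probe that the array names only by the accession M77174 and describes as perlecan had -0.29 ± 0.14, outside the list of 41 because no gene name linked it to Hspg2.

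Smooth muscle transcripts differed between the WT pools, and part of the list was low on the same WT pool. On all 9 smooth muscle markers the log2 fold change was below 0, against 41.1% of all genes, with a median of -1.44. At an unadjusted p under 0.05 in limma 3 of the 9, Synpo2, Acta2 and Smtn, were lower, against 4.11% of all genes. WT replicate 3, the WT array low in these markers, was the lowest WT array for 25 of the 41 genes and the highest for 7. Thbs1, Thbs2, Tnc, Eln, Emilin1 and Spon1 were among the former, and Prelp, Sparc and Nid1 among the latter. It lay nearer the hNAG-1 mean than the mean of WT replicates 1 and 2 for 58.5% of the 41 genes, against 50.6% of all genes. Without WT replicates 1 and 2 the log2 fold change was -1.38 for Thbs1, -1.0 for Thbs2, -0.54 for Tnc, -0.44 for Eln, 0.03 for Emilin1 and 0.15 for Spon1. It was -1.59 for Prelp, -0.80 for Sparc, -0.80 for Fbln5, -0.64 for Bgn and -0.73 for Nid1. For Nid2 and Fbn1 it was -0.81 and -0.84, and 31 of the 41 genes were below 0 in that comparison, against 40.1% of all genes. The part of smooth muscle in these differences was not tested.

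**Figure D4:**
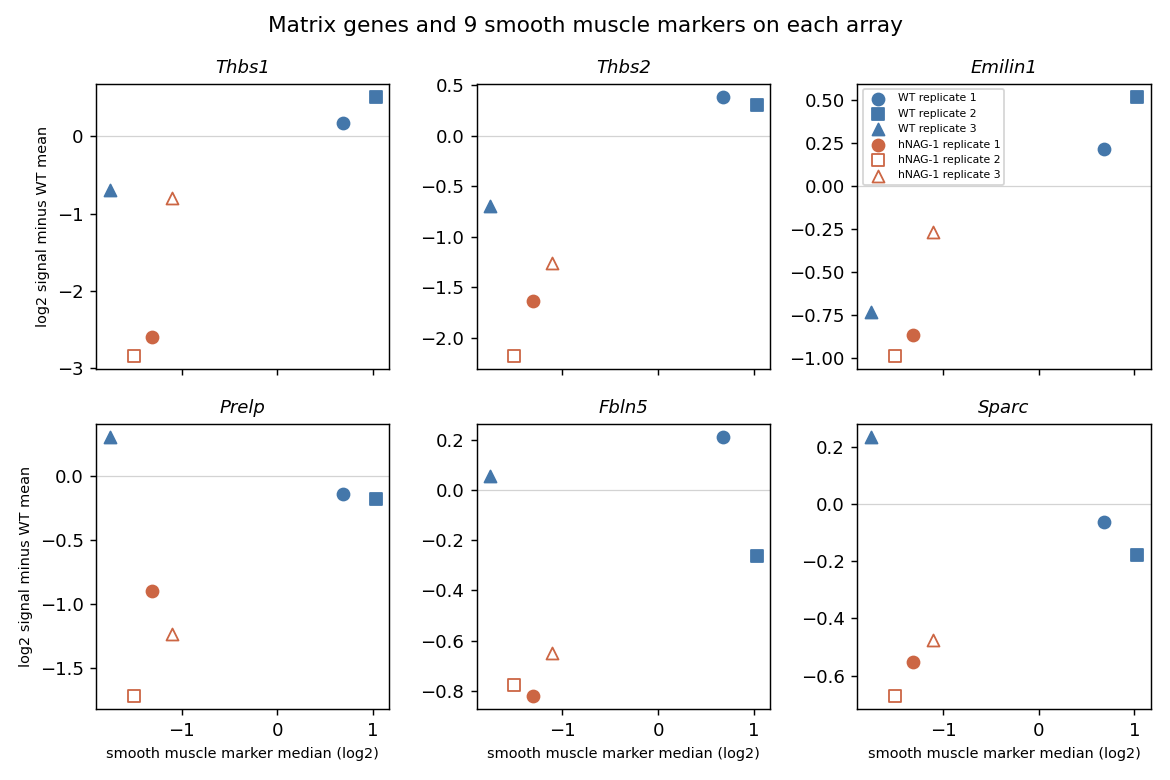
Log2 signal minus the WT mean of 6 matrix genes (vertical axes) against the median of 9 smooth muscle markers on the same array (horizontal axes), 1 point per array. On WT replicate 3, at -1.75 on the horizontal axis, Thbs1, Thbs2 and Emilin1 were at their lowest WT value and Prelp and Sparc at their highest.

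Markers of the other cell types of fat had medians closer to 0. Of 10 markers of fibroblasts and adipocyte progenitors that are not themselves matrix genes, 9 were below 0, the median being -0.27. At an unadjusted p under 0.05 in limma 1 of the 10, Ly6a, was lower, against 4.11% of all genes. The summed signal of the 10 was 132 to 196 times the 75th percentile in the WT pools and 130 to 147 times in the hNAG-1 pools. Of 10 macrophage markers, 9 were below 0, with a median of -0.31. At an unadjusted p under 0.05 in limma 3 of the 10, Itgam, Cd68 and Cd163, were lower, against 4.11% of all genes. The median of the 10 macrophage markers relative to the WT mean was 0.15, -0.12 and -0.09 in the WT pools. It was -0.31, -0.40 and -0.29 in the hNAG-1 pools, which did not overlap the WT pools. The sum of the 10 macrophage markers was 133 to 168 times in the WT pools and 140 to 144 times in the hNAG-1 pools.

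Of 10 endothelial markers, 8 were below 0, their median being -0.17. At an unadjusted p under 0.05 in limma 1 of the 10, Vwf, was lower, against 4.11% of all genes. The sum of the 10 was 53.7 to 82.5 times the 75th percentile in WT pools against 45.5 to 66.8 times in hNAG-1 pools. Mesothelial markers were below 0 in 6 of 8, with a median of -0.16 and a sum of 76.7 to 77.9 times against 56.5 to 73.6 times. Adipocyte markers were higher, with 9 of 10 above 0, a median of 0.25 and Lep, which encodes leptin, at -0.82 ± 0.43. At an unadjusted p under 0.05 in limma 3 of the 10, Retn, Slc2a4 and Fabp4, were higher, against 8.44% of all genes. The sum of the 10 was 1661 to 2002 times in the WT pools and 2041 to 2434 times in the hNAG-1 pools, which did not overlap. The same sum over all genes, 88600 to 99340 times in WT and 100500 to 104600 times in hNAG-1 pools, did not overlap either. All markers of these 5 cell types were well above background on all arrays, none was at 0, and their part in the matrix differences was not tested. Skeletal muscle markers were above 0 in 6 of 8, with sums of 45.6 to 216 times in WT and 51.6 to 349 times in hNAG-1 pools, lymphocyte markers in 8 of 8, and within the shared slide in 0 of 8 and 4 of 8. Exocrine pancreas markers were below 0 in 5 of 6. At an unadjusted p under 0.05 in limma 0 genes of these 3 lists were lower or higher, against 4.11% and 8.44% of all genes. hNAG-1 replicate 2, the lowest hNAG-1 array for 24 of the 41 matrix genes, was the highest hNAG-1 array in the lymphocyte and skeletal muscle lists, with medians of 1.07 against -0.01 and 0.24 for lymphocyte markers and 1.91 against -1.05 and -0.47 for skeletal muscle markers. Their part in the matrix differences was not tested.

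**Figure D5:**
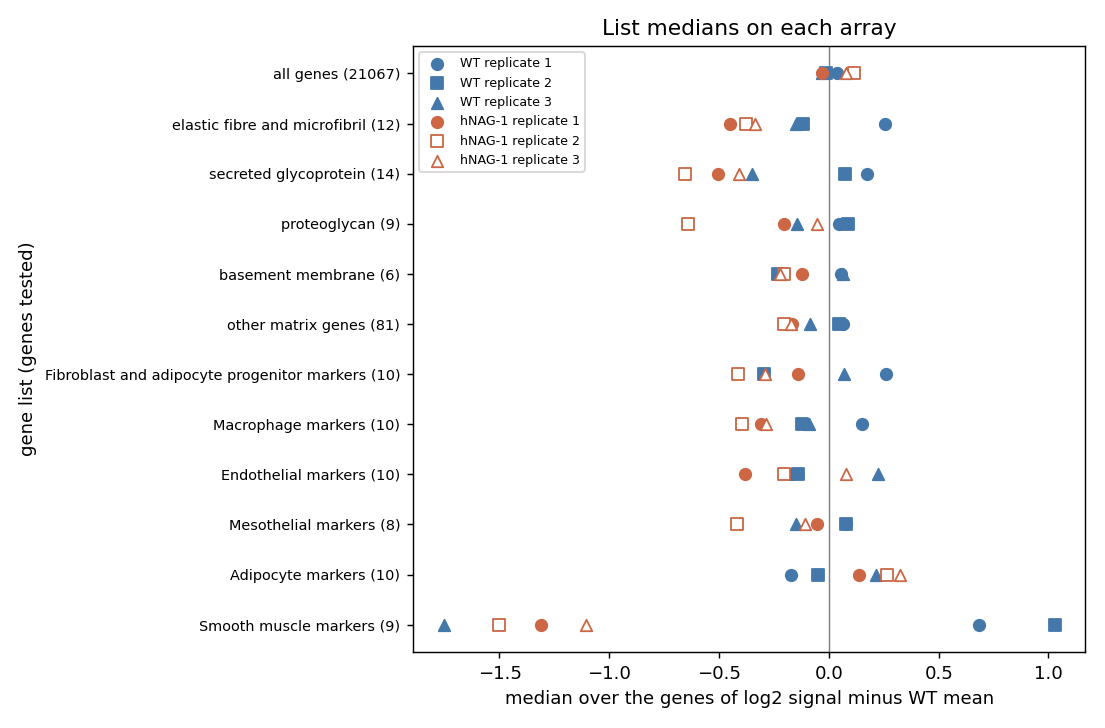
Median over the genes of a list of log2 signal minus the WT mean (horizontal axis) on each of 6 arrays, for all genes, the 4 roles of matrix genes, the other matrix genes and 6 marker lists (vertical axis, genes tested in brackets). The glycoproteins, the elastic fibre genes, the other matrix genes and the macrophage markers have all hNAG-1 arrays to the left of all WT arrays, and on the smooth muscle row WT replicate 3 lies with the hNAG-1 arrays.

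Of 86 further genes of matrix glycoproteins and proteoglycans, 81 were tested and 56 had a log2 fold change below 0, their median being -0.26. At an unadjusted p under 0.05 in limma, 17 were lower, against 4.11% of all genes, and 8 higher, against 8.44% of all genes. With normexp 48 of the 81 lay below the median of all genes. The 4 with the smallest p were Podnl1, a podocan-like gene, Cspg4, the NG2 proteoglycan of pericytes, Optc (opticin) and Comp, a further thrombospondin.

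Podnl1 read -3.29, -3.34 and -2.85 in the WT pools and -0.74, 0.54 and -0.05 in the hNAG-1 pools, a log2 fold change of 3.08 ± 0.35. Its relative Podn, as given above, had 0.03. Cspg4 had 1.00 ± 0.12, Optc 1.08 ± 0.15 and Comp -0.96 ± 0.15, and none of the 4 passed the adjusted threshold, with adjusted p of 0.169 to 0.178 in limma. Prg4 had no probe, and Lama1, Nell2, Tnn and Impg1 had no probe well above background on enough arrays.

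Of the receptors and assembly partners of the matrix, 18 of 24 tested had a log2 fold change below 0, against 41.1% of all genes, with a median of -0.23, and with normexp 12 of the 24 lay below the median of all genes. In limma 3 were lower, against 4.11% of all genes, and 0 higher at an unadjusted p under 0.05, and 0 passed the adjusted threshold. Itga5, the alpha chain of the fibronectin receptor, had -1.38 ± 0.40, Bmp1, a procollagen proteinase, -0.43 ± 0.16, and Loxl1, which crosslinks elastin, -0.40 ± 0.15. Itga2 had no probe that passed the filter.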

How the data were processed

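For each array the authors deposited the output of Agilent Feature Extraction 9.5 (named in the submitters' processing notes) and a value table. The deposited intensity values, on a linear scale, had been background-subtracted and detrended by the scanner software. The 45018 table values were identical to the scanner's, with no normalization between arrays. The study's methods name an Affymetrix array, and the files are from 1-colour Agilent arrays.

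Control spots (1639 per array) and flagged outliers were removed, replicate spots averaged, and log2 signal taken relative to each array's 75th percentile. Probes well above background on at least 3 arrays were kept, and the brightest stood for its gene (21067 genes). Probes were named through mouse RefSeq (GRCm38) where they matched it, and 8455 of 41174 kept the array's own name. Of the 21067 genes, 16382 had a current symbol, so shares of all genes include entries without one. Probes of the matrix list were assigned by gene name, and those of Vcan and Lamb1 and the dimmer probe of Postn were under older symbols. Genotypes were compared with limma 3.58.1 in R 4.3.3, with two-sided tests and Benjamini-Hochberg adjustment. The fit was tested on simulated data with independent noise and no slide effect, which cannot speak to slide or background correction in these arrays. The number of arrays limits the precision. The p-values set each difference against the spread between arrays of a genotype, moderated by limma over all genes. Slide adds to the hNAG-1 spread and to the genotype difference, since hNAG-1 arrays lay on both slides and WT arrays on 1.

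The genes, lists and tests were chosen with earlier results of these data known. Named genes were those at an unadjusted p under 0.05, the largest and smallest difference of each role, and the rest by value. Alternatives were normexp background correction (offset 50), quantile normalization, a filter on all arrays and no filter, the mean of a gene's probes, naming by accession, trended robust variances, slide as fixed or random block or within the shared slide, the replicate number as block and each array left out. The 75th percentile over spots, and WT replicate 3 as the only WT array, were added after seeing the data.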

Additional observations from a re-analysis of the deposited data

How the results depend on the processing

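Prelp was lower at an unadjusted p under 0.05 in 20 of 20 settings, Thbs2 and Bgn in 19, Fn1 and Fbln5 in 18, Thbs1 and Sparc in 16, Eln in 15, Fstl1 in 14 and Tnc in 10. These genes were chosen at that threshold on the same arrays, and the settings include the reported one. Naming by accession left their values unchanged, so the tallies are no independent support. The count of matrix genes lower at that threshold was 16 with quantile normalization (5.11% of all genes lower) and 6 with normexp background correction (0.555%). With each array left out it was 6 to 17, lowest without WT replicate 1 (2.52%) and highest without WT replicate 3 (5.93%). The median log2 fold change of the 41 was -0.17 with normexp, against -0.19 for all genes. With WT replicate 3 as the only WT array (chosen after seeing the data) it was -0.13, against 0.08 for all genes. With trended robust variances 23 of 21067 genes were lower and 107 higher at an adjusted p under 0.05 in limma. Of the 41 matrix genes 0 passed, the smallest adjusted p being 0.0603, and at so small a share of all genes this says little about the list. With slide as a fixed block 1 of 21067 genes was lower and 1 higher at an adjusted p under 0.05. The cause of these differences was not tested.

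Whether replicate numbers pair the samples could not be decided. Same-numbered arrays correlated in their deviations from the group mean at 0.099, 0.51 and 0.093, and differently numbered ones at -0.42 to 0.34. The deviations of the 3 arrays of a genotype sum to 0, so these correlations depend on each other. With the replicate number as a block (replicate block), 7 matrix genes were lower at an unadjusted p under 0.05 in limma, against 4.42% of all genes. The median of the matrix genes stayed at -0.35, against 0.06 for all genes.

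Some genes changed sign, Fbn2, Emilin1, Spon1 and Aspn among them. Quantile normalization gave -0.012 for Dcn and -0.12 for Lamc1. Normexp gave 0.024 for Fbln2, 0.10 for Efemp2, 0.12 for Fmod, 0.020 for Ogn, -0.15 for Podn, 0.015 for Nid2 and 0.12 for Lama4. All of these lay above the normexp median of all genes, -0.19. Taking the mean of a gene's probes gave 0.041 for Lama4. Both slide as a fixed block and the comparison within the shared slide gave 0.080 for Fbln1 and 0.073 for Ogn. With WT replicate 3 as the only WT array the values were 0.14 for Fbn2, 0.083 for Efemp2, 0.027 for Emilin1, 0.15 for Spon1, 0.041 for Postn, 0.12 for Fmod, 0.027 for Ogn, 0.31 for Aspn and -0.13 for Lamc1. With each array left out the log2 fold change ran from -0.17 to 0.055 for Efemp2, -0.13 to 0.081 for Fmod, -0.10 to 0.081 for Lamc1, -0.29 to 0.27 for Nid2, -0.38 to 0.057 for Ogn, -0.11 to 0.19 for Podn and -0.83 to 0.086 for Spon1.

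The brightest probes of these genes were well above background on all arrays and not saturated.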
